A study of Mus musculus with 194 samples.

Results

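Calling card insertions recorded in the cortex of C57bl6J mice given Cre-independent viruses were set against those recorded in Syn1Cre mice. The members were chosen by label: the cortex tables of C57bl6J replicates 1 and 2 and of Syn1Cre replicates 1 to 6, which are 8 of the 47 deposited tables of the series. AAV was injected on postnatal day 0 to 1 in both groups. The libraries were self-reporting transposon (SRT) libraries, in which each insertion is read from RNA. The C57bl6J animals carry no Cre line in their labels, and the design text of the series gives them Cre-independent viruses. The Syn1Cre animals are named for their Cre line, and the labels give neither their age at collection nor the transposase. Levels in 2 further cortex groups of 6 animals each, also injected on postnatal day 0 to 1, are given without a test: GFAPCre, named for another Cre line, and Syn1CreNeg, whose name marks it as Cre-negative. The labels call the samples replicates of one line and do not state litters, so each p-value measures the spread between these samples, here taken as animals. Whether a difference comes from the virus, the mouse line or the sequencing pool cannot be told apart, since each C57bl6J animal had pools of its own and the Syn1Cre animals were pooled as replicates 1 to 3 and 4 to 6.

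In calling cards a transposase pastes a marked transposon into TTAA sequences of the genome, and an unfused transposase lands most often in open, active regulatory DNA such as enhancers. The insertions therefore accumulate near genes that define the cells that were infected. A Syn1 promoter is active in neurons in general, so a Syn1-Cre line is used to limit a Cre-dependent construct to neurons. The cortex holds excitatory projection neurons, GABAergic interneurons, astrocytes, oligodendrocyte lineage cells, microglia and vascular cells, and it borders on the striatum, whose main cells are GABAergic medium spiny projection neurons.

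The C57bl6J tables held 1545951 and 2186743 insertions, counted as 1 line of a table each, and the Syn1Cre tables held 443158 to 1364948. On chromosomes 1 to 19 the C57bl6J counts lay above every Syn1Cre count, with a ratio of geometric means of 2.11. By an exact two-sided permutation test over 28 splits the difference in log10 insertions had p = 0.0714 (adjusted p = 0.0714 over 3 tests), which misses the threshold of 0.05. Without Syn1Cre animal 4, 5 or 6 the exact permutation p was 0.0476. The smallest p that this test can give is 0.0357. Because depths differ, levels below are insertions per 1000000 insertions on chromosomes 1 to 19 (ipm), at a gene locus made of the gene body and 10 kb on each side. As a check of the labelled tissue, Tbr1, a transcription factor of deep-layer cortical neurons, had 329 and 341 ipm in C57bl6J and 280 to 351 in Syn1Cre. In such bulk tissue, fewer cells of a type and fewer insertions per cell cannot be told apart.

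Across 14021 gene loci tested, 104 passed an adjusted p of 0.05 in edgeR's quasi-likelihood test with Benjamini-Hochberg adjustment, which is 0.742% of them. Of these, 100 (0.713%) were higher in C57bl6J and 4 (0.0285%) were lower. The median log2 fold change over all loci was -0.03, 45.8% lay above 0, and 1909 loci had an unadjusted p under 0.05. With total insertions in place of TMM scaling the split was 38 higher and 17 lower and the median over all loci moved to -0.16, so fold changes here are relative to TMM scaling. The calls depend on having both C57bl6J animals: 16 loci passed without animal 1 and 2 without animal 2. Without Syn1Cre animal 5, the shallowest table, 251 passed, and 62 passed without Syn1Cre animal 2.

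The 10 loci with the highest changes under the naming rule were led by Isl1 and Ebf1. Isl1 encodes a LIM homeodomain transcription factor of developing striatal and cholinergic neurons. Its locus (GRCm38 chr13:116298270-116309688 for the body) carried 83.4 and 68.0 ipm in the C57bl6J animals and 23.1, 11.0, 11.4, 13.5, 30.05 and 24.8 in Syn1Cre animals 1 to 6. Both C57bl6J values lay more than 2 times above the highest Syn1Cre value. The log2 fold change reached 2.18 with a standard error (SE, given as ± below) of 0.22, and edgeR gave an adjusted p of 4.63e-05. Ebf1, a helix-loop-helix factor needed for striatal neuron differentiation (chr11:44618100-45008096), carried 172 and 158 ipm against 38.0, 62.2, 37.8, 48.8, 20.8 and 67.2 (log2 fold change 1.89 ± 0.20, adjusted p = 4.63e-05). These 2 loci passed the threshold under each of the 19 alternatives computed, with log2 fold changes from 1.77 to 2.53 for Isl1 and from 1.66 to 2.23 for Ebf1.

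**Figure D1:**
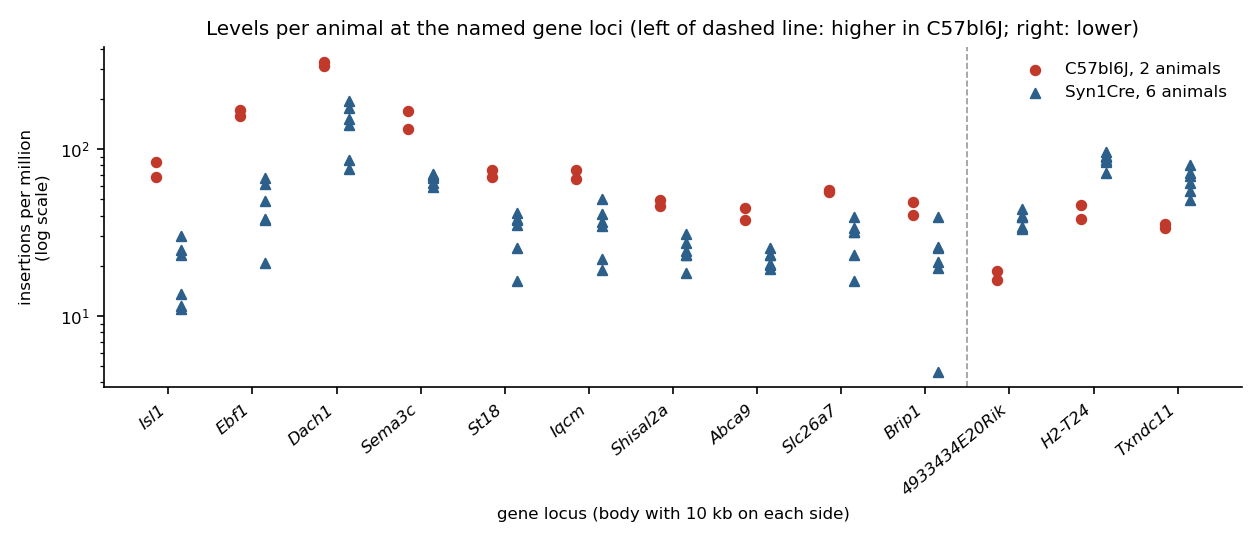
Ipm on a log axis at the 13 gene loci named by rule, with 1 point per animal for C57bl6J (2, circles) and Syn1Cre (6, triangles). The rule names only loci whose groups do not overlap, so the C57bl6J points lie outside the range of the Syn1Cre points: above it at the 10 loci left of the dashed line and below it at the 3 on the right.

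Of the remaining 8 of these loci, 2 encode transcriptional regulators. Dach1, a Dachshund-family cofactor, had 330 and 317 ipm in C57bl6J and 76.3 to 195 in Syn1Cre (log2 fold change 1.32 ± 0.21, adjusted p = 0.00690). St18, a zinc-finger factor of the Myt1 family, had 68.2 and 75.5 against 16.2 to 41.4 (1.24 ± 0.17, adjusted p = 0.00148). Sema3c, a secreted semaphorin that guides axons, had 131 and 168 against 59.5 to 70.7, the narrowest Syn1Cre range of the set in proportion to its level (1.31 ± 0.15, adjusted p = 0.000104). The other 5 were Iqcm (1.10), Shisal2a (1.10), the ABC transporter Abca9 (1.05), the anion exchanger Slc26a7 (1.04) and the DNA repair helicase Brip1 (1.03), whose adjusted p-values ran from 0.00670 to 0.0488. None of these 8 is on a cell type list used here. Brip1 passed in 8 of 19 alternatives. Dach1 had an adjusted p of 0.0707 without C57bl6J animal 1 and 0.214 without animal 2.

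To show the kind of target behind these counts, TTAA sites upstream of start sites are given with up to 30 bases on each side, from RefSeq promoters of GRCm38.p6. Chosen after their counts were seen, they cover the striatal regulators Ebf1, with insertions at the site, and Isl1, without, a retinoid receptor, the astrocyte marker Slc1a3, the glial regulator Nfia and the synaptic vesicle gene Syt1. Each is written 5′ to 3′ on the gene's strand with the TTAA in capitals.
Ebf1, chr11:44620036-44620099, plus strand: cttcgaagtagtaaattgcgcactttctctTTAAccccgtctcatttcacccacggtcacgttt
Isl1, chr13:116309833-116309896, minus strand: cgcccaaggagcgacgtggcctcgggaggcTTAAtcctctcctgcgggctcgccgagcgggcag
Rarb, chr14:16575571-16575634, minus strand: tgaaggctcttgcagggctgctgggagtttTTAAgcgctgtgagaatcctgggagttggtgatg
Slc1a3, chr15:8710889-8710952, minus strand: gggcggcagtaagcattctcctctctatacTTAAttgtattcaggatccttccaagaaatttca
Nfia, chr4:97581736-97581799, plus strand: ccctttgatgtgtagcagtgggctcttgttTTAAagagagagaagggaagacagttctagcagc
Syt1, chr10:109009281-109009344, minus strand: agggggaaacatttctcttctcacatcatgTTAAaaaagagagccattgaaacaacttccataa

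The Ebf1 and Rarb sites lie upstream of a start site inside the locus. The Ebf1 site held 5 insertions over the 2 C57bl6J animals (2 and 3) and 1 over the 6 Syn1Cre animals. The Isl1 site held none in any of the 8 animals, so the Isl1 insertions counted above lie elsewhere in the locus. At the Rarb site there were 9 in C57bl6J and 16 in Syn1Cre, and at the Slc1a3 site 2 and 5. The Nfia site held 18 and 49, and the Syt1 site 21 and 49. These raw counts come from groups of unequal depth and are given without a test. Of the 31396 RefSeq promoter windows of 300 bases on these chromosomes, 52.3% hold a TTAA on at least 1 strand, a palindrome that reads the same on both. All 84291 insertions that fell in such windows started at a TTAA.

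Of the 100 loci called higher, 14 belong to genes of striatal projection neurons. A list of 30 such genes was put together after the called loci had been seen, so its counts describe these data and support nothing. It includes members that did not pass. Of its 26 tested members 14 were called higher (0.713% over all loci) and none lower, and 24 lay above 0 (45.8% over all loci), with a median log2 fold change of 0.80 and a range from -0.17 to 2.18. Its called members fell to 6 with total insertions scaling, to 4 without C57bl6J animal 1 and to 2 without animal 2. Among transcription factors of the list, Foxp2 had 1102 and 1002 ipm in C57bl6J and 502 to 719 in Syn1Cre (log2 fold change 1.02 ± 0.13, adjusted p = 0.000634). Zfp503, a zinc-finger factor of the striatal primordium, had 26.5 and 16.9 against 6.93 to 13.6, and Ikzf1, an Ikaros-family factor, 15.2 and 13.6 against 4.62 to 6.87. The retinoid receptor genes Rarb (0.69) and Rxrg (0.83) were called higher too.

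Among receptors and signalling genes of the same list, the dopamine receptor gene Drd3 was called higher, with 39.7 and 43.1 ipm in C57bl6J and 13.9 to 23.2 in Syn1Cre (log2 fold change 1.36 ± 0.18, adjusted p = 0.000916). Drd1, the receptor of direct-pathway neurons, had 92.1 and 87.2 against 43.9 to 69.8 and did not pass (0.63 ± 0.15, adjusted p = 0.0601). Drd2, the receptor of indirect-pathway neurons, had 19.9 and 16.9 against 2.31 to 17.3, so its groups overlapped (adjusted p = 0.344). Pde10a, a phosphodiesterase abundant in medium spiny neurons, was called higher (0.68), as were both subunit genes of soluble guanylate cyclase, Gucy1a1 (0.89) and Gucy1b1 (0.81). Other widely used striatal markers lay near 0: Ppp1r1b, which encodes DARPP-32, had 53.0 and 46.9 against 46.5 to 78.7 (-0.17, adjusted p = 0.715), and Gng7 had a log2 fold change of -0.01.

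Summed over its loci, the striatal list reached 5914 and 5306 ipm in C57bl6J and 3426 to 4077 in Syn1Cre. The groups did not overlap, for a list put together after the called loci had been seen. Foxp2 and Foxp1, among its members with the highest counts, are also genes of deep-layer cortical neurons. At Foxp2 alone C57bl6J had 1102 and 1002 ipm against 502 to 719 in Syn1Cre. For comparison, without a test, the list sum reached 3585 to 4601 in 6 GFAPCre animals and 3634 to 4875 in 6 Syn1CreNeg animals. The C57bl6J sums were the highest of these 4 groups. Isl1 had a median of 16.4 in GFAPCre (12.3 to 38.3) and 18.1 in Syn1CreNeg (9.21 to 52.5), near the Syn1Cre median of 18.3. Syn1CreNeg animals 1 to 3 had only 95188 to 116388 insertions on chromosomes 1 to 19, so such levels there rest on few insertions. Lists of other neighbouring brain regions, also chosen after the loci were seen, had 0 called members in edgeR and in DESeq2. Over all loci 0.742% passed in edgeR, so lists this short would hardly hold a call at that share. The median was -0.17 for 7 tested thalamic loci (2 at an unadjusted p under 0.05, both lower), 0.11 for 6 hippocampal loci (0 at that p) and 0.33 for 4 septal and basal forebrain cholinergic loci (1, higher). Sums that did not overlap were also seen for the thalamic, GABAergic interneuron, pan-neuronal, astrocyte, oligodendrocyte lineage and microglia lists, all lower in C57bl6J. In the remaining lists the sums overlapped. None of these sums is TMM-scaled.

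**Figure D2:**
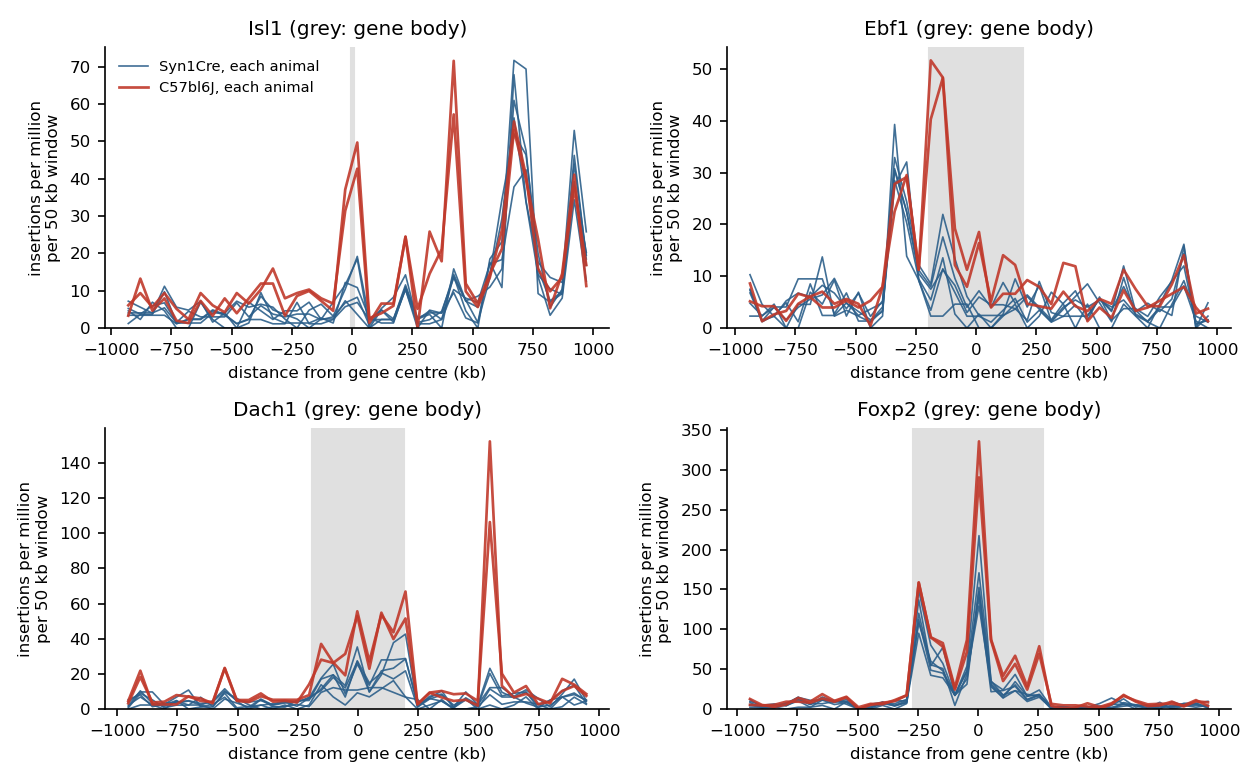
Ipm in 50 kb windows against distance in kb from the centre of Isl1, Ebf1, Dach1 and Foxp2, with 1 line per animal (C57bl6J red, Syn1Cre blue) and the gene body in grey. The C57bl6J lines stand above the Syn1Cre lines over the genes and at single windows outside them, while several other peaks near Isl1 and Ebf1 are of like height in both groups.

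The cortex of each C57bl6J animal was read in parts, of which 6 can be told apart by primer barcode and the other 4 in pairs. Part 3 of animal 1 held 1519 insertions and is left out here. Isl1 reached 359 ipm in part 7 of animal 2, from 43 insertions, and 8.47 to 145 in the rest of that animal. In animal 1 it ran from 25.4 to 114. Part 7 of animal 2 also had 985 at Ebf1 and 2955 at Foxp2. Without that part 113 loci and 453 windows passed, and the log2 fold changes were 2.00 for Isl1 and 1.66 for Ebf1, a setting added after seeing the data. The striatal list then had 9 called members and a median of 0.67. Whether the way the cortices were cut bears on the difference between the groups was not tested.

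**Figure D3:**
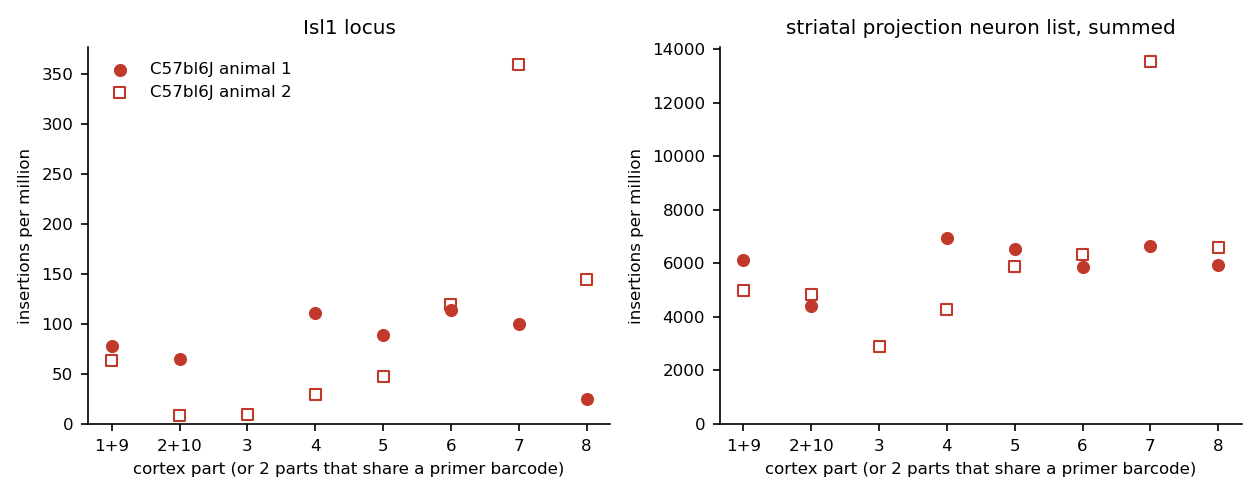
Ipm at the Isl1 locus (left) and summed over the striatal projection neuron list (right) in each cortex part, or pair of parts sharing a primer barcode, of the 2 C57bl6J animals. Part 7 of animal 2 is highest in both panels, at 359 and 13540, and the other parts lie between 8.47 and 145 for Isl1 and between 2899 and 6951 for the list. Part 3 of animal 1, with 1519 insertions, is not drawn.

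In 50 kb windows, which also cover intergenic DNA, 490 of 30780 windows tested passed (1.59%), with 437 higher in C57bl6J (1.42%) and 53 lower (0.172%). The count was 109 without C57bl6J animal 1, 61 without C57bl6J animal 2, 301, 313 and 272 without Syn1Cre animals 1, 2 and 6, and 1271 without Syn1Cre animal 5. The strongest named window lay beyond Dach1, its nearest protein-coding gene, at chr14:98500001-98550000. It carried 152 and 106 ipm in C57bl6J against 8.14, 12.2, 11.4, 20.3, 2.31 and 23.2 in Syn1Cre (log2 fold change 3.10 ± 0.25, adjusted p = 1.37e-07). The next 4 were an intergenic window nearest to Hsfy2 (chr1:56350001-56400000, 2.29), one nearest to Parp8 on the Isl1 side of that gene (chr13:116700001-116750000, 2.28), one nearest to Meis2, a homeobox gene expressed in striatal neurons (chr2:116300001-116350000, 2.19), and the window over Isl1 itself (2.04). The rule names only windows whose groups do not overlap. Each of these 5 passed under all 18 alternatives computed for windows.

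Windows called higher were mostly free of genes. Of the 437, 296 (67.7%) held no protein-coding gene, against 29.6% of all windows tested and 3 of the 53 windows called lower (5.66%). Joined where they lay within 100 kb of each other, the higher windows formed 298 stretches, of which 231 were single windows and 9 held 5 or more. The stretches with the most windows lay nearest to Triqk and Runx1t1 (13 windows over 750 kb), to Pou3f2 and Mms22l (9 windows) and to Foxp2 (7 windows). Runx1t1 encodes a transcriptional corepressor and Pou3f2 a POU-domain factor of neurons.

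The share of insertions in and near genes was measured over all insertions of each animal. Protein-coding gene bodies, which make up 39.97% of these chromosomes, held 54.2% ± 0.122 of insertions in C57bl6J (SD, n = 2; 54.2% and 54.1%) and 58.3% ± 1.45 in Syn1Cre (SD, n = 6; 57.1% to 60.8%). The share within 1 kb of a gene end was 6.57% ± 0.258 in C57bl6J and 7.65% ± 0.441 in Syn1Cre, where 3.04% of the length lies. In both measures the groups did not overlap. By the exact two-sided permutation test each had p = 0.0357, the smallest it can give, and 0.0536 after adjustment over 3 tests, which misses the threshold. Without Syn1Cre animal 2 the exact permutation p for gene ends was 0.0952.

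Of the GABAergic interneuron list 1 of 27 tested members was called higher and none lower (median -0.06, against -0.03 over all loci). That member was Adarb2, a gene of interneurons from the caudal ganglionic eminence, with 201 and 232 ipm in C57bl6J against 57.8 to 158 (0.89 ± 0.21, adjusted p = 0.0497), which passed in 7 of 19 alternatives. The marker Gad1, which encodes the enzyme that makes GABA, had 45.03 and 45.5 in C57bl6J, inside the Syn1Cre range of 30.05 to 57.3 (0.20 ± 0.17, adjusted p = 0.653). Gad1 lay at 5.30 to 22.1 in GFAPCre and at 0 to 14.7 in Syn1CreNeg, whose shallowest tables hold few insertions at such a locus. Members with the highest counts gave -0.42 for Sox6, -0.01 for Erbb4 and -0.43 for Dlx1, the last with 250 and 226 against 290 to 416 and an adjusted p of 0.224. Summed, the list was lower in both C57bl6J animals (2868 and 2962) than in each Syn1Cre animal (3034 to 3975). This sum is not TMM-scaled. With total insertions scaling the list's median was -0.19, near the -0.16 over all loci.

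Of the excitatory projection neuron list 2 of 30 members were called higher, Foxp2 and Foxp1, forkhead genes of deep-layer cortical neurons that are also on the striatal list. Foxp1 had 1470 and 1266 ipm against 822 to 1133 (0.64 ± 0.13, adjusted p = 0.0285). The list's median was 0.05. Mef2c (-0.06) and Sox5 (0.26) had the highest counts and did not pass. Windows near this list gave 26 higher calls in 248 (10.5%, against 1.42% of all windows). Among them were windows at Foxp1, Foxp2, Mef2c, Neurod6 and Sox5. Another 1 (0.403%, against 0.172% of all windows) was lower, at Camk2a. The pan-neuronal list had 0 called of 26 loci in edgeR and in DESeq2, with 5 at an unadjusted p under 0.05, 4 of them lower. Its median was -0.14, and among its best-covered loci Cntnap2, a neuronal adhesion gene, had 0.24 and the synaptic vesicle gene Syt1 -0.15. Summed, it was lower in both C57bl6J animals (11187 and 11354) than in each Syn1Cre animal (12283 to 13344). Such a sum is not TMM-scaled and carries the general shift of loci. With total insertions scaling the list's median was -0.27, against -0.16 over all loci.

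**Figure D4:**
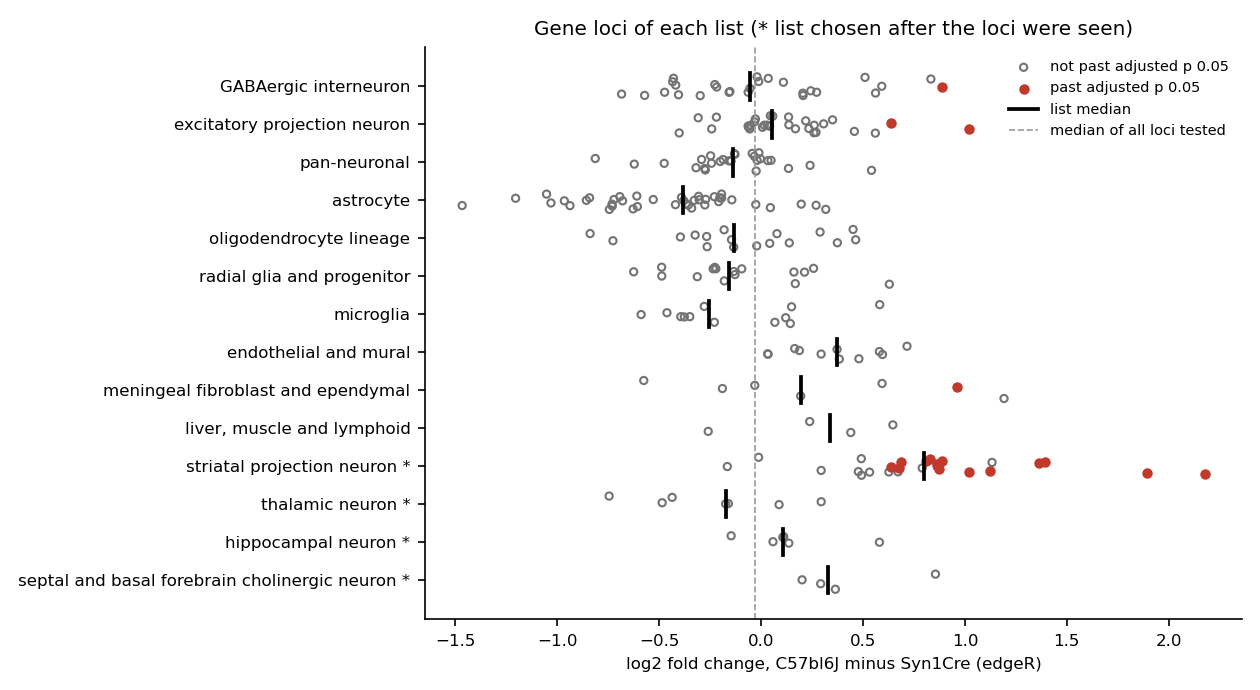
Log2 fold change (C57bl6J minus Syn1Cre, edgeR) of each tested locus by gene list, with loci past adjusted p 0.05 filled, the list median as a bar and the median of all loci as a dashed line. The astrocyte list has its median at -0.39 with no filled point, while the striatal list, chosen after the loci were seen, has its median at 0.80.

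The glial lists held no locus called higher in the Cre-independent animals. Over all loci 0.713% were called higher, so lists of this size would hold few such calls or none at that share. In the astrocyte list 0 of 40 tested members were called by edgeR or DESeq2, 11 had an unadjusted p under 0.05 (all lower in C57bl6J; 1909 of 14021 over all loci, in either direction) and 4 lay above 0 (45.8% over all loci), with a median of -0.39. Slc1a3, the glutamate transporter GLAST of astrocytes and radial glia, had 166 and 180 ipm in C57bl6J against 159, 243, 196, 267, 790 and 275 in Syn1Cre animals 1 to 6 (-0.74 ± 0.41, adjusted p = 0.447). Syn1Cre animal 5 stands apart at 790, and without it the change was -0.27 with an adjusted p of 0.457. The best-covered members were Ntrk2 (-0.30), Gpc5 (0.20) and Slc4a4 (-0.27). Summed over the list, C57bl6J had 3065 and 3133 and Syn1Cre 3470 to 4402 in 5 animals and 8499 in animal 5. GFAPCre animals had 4099 to 7178 and Syn1CreNeg animals 8729 to 11724.

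The astrocyte difference was of unequal size against the Syn1Cre pools, and the gap between them was not tested. Reads per insertion were 3.13 and 4.06 in C57bl6J and 2.99 to 3.69 in Syn1Cre animals 1 to 3. They were 10.7 to 20.7 in animals 4 to 6, and whether this bears on the astrocyte difference was not tested. Against Syn1Cre animals 1 to 3 the list's median was -0.14, with 3 of 38 tested members called higher and 3 lower. Over all loci 846 of 12569 were called higher there and 423 lower. Against animals 4 to 6 the list's median was -0.71, with 8 of 40 lower, where 62 of 14212 loci were lower. Without animal 5 the list's median was -0.24, with 2 of 40 lower, where 27 of 14697 loci were lower. The striatal list had a median of 0.79 against animals 1 to 3 and 0.80 against animals 4 to 6. It was put together after the calls from these same animals had been seen, so its like medians support nothing. Of 178 tested windows near astrocyte genes 3 (1.69%) were called higher, all at Gpc5, a share near the 1.42% of all windows. Another 2 (1.12%, against 0.172% of all windows) were lower, at the glutamate transporter gene Slc1a2 and at Lcat.

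**Figure D5:**
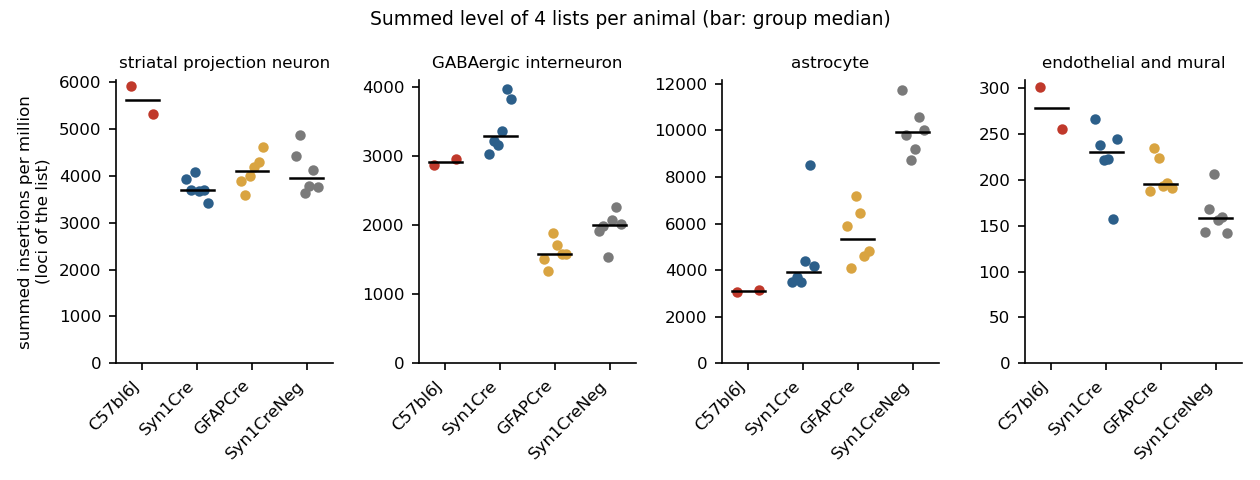
Summed ipm over the loci of 4 lists in each animal of C57bl6J (2), Syn1Cre (6), GFAPCre (6) and Syn1CreNeg (6), with the group median as a bar. C57bl6J is highest for the striatal projection neuron list (5306 and 5914), which was chosen after the loci were seen. It is lowest for the astrocyte list (3065 and 3133), where Syn1Cre animal 5 stands apart at 8499.

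The other glial lists also had 0 calls in edgeR and in DESeq2 (0.742% of all loci in edgeR). Olig2, the transcription factor of the oligodendrocyte lineage, had 10.6 and 9.37 ipm in C57bl6J against 8.14, 6.09, 10.3, 23.3, 43.9 and 22.4 (-0.73 ± 0.44, adjusted p = 0.494), so Syn1Cre animals 4 to 6 lay above C57bl6J and animals 1 to 3 around it. The oligodendrocyte lineage list had a median of -0.13 over 17 loci and no member at an unadjusted p under 0.05, with Tnr at -0.02, Lhfpl3 at 0.29 and the myelin gene Mbp at -0.15. The radial glia and progenitor list had -0.16 over 16 loci (3 at an unadjusted p under 0.05, 2 of them lower), led in count by Nfia (-0.24), Zbtb20 (-0.18) and Nfib (0.17). Its median was 0.05 without Syn1Cre animal 5. The microglia list had -0.25 over 12 loci (1 at an unadjusted p under 0.05, lower), with Sall1 at -0.59, Aif1 at -0.39 and Spi1 at 0.15.

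The endothelial and mural list had 0 calls in edgeR and in DESeq2 among 11 tested loci and 3 at an unadjusted p under 0.05, all higher, and all 11 lay above 0 (45.8% over all loci), with a median of 0.37. The number above 0 was 8 of 10 without Syn1Cre animal 4 and 7 of 11 with the replicate block, where the median was 0.14 and 1 was called higher. Its levels were low: the 20 loci summed to 301 and 255 ipm in C57bl6J against 157 to 266, and the groups overlapped. The best-covered members were Slc2a1 (0.03), Pecam1 (0.16) and Abcb1a (0.58). In the meningeal fibroblast and ependymal list 1 of 7 was called, Dcn, which encodes the matrix proteoglycan decorin (30.5 and 34.2 against 9.25 to 21.9, 0.96 ± 0.22, adjusted p = 0.0432), which also passed in 7 of 19 alternatives. The ependymal genes Ccdc153 (-0.19) and Tmem212 (-0.03) did not pass. The list of liver, muscle and lymphoid genes had 0 of 4 called by edgeR or DESeq2 and 2 at an unadjusted p under 0.05, with Ptprc at 0.44, Ttr at 0.24 and Afp at 0.65.

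In the reverse direction 4 of 14021 loci were called lower in C57bl6J, and this count depends on which animals enter. It was 27 of 251 calls without Syn1Cre animal 5, 62 of 153 against Syn1Cre animals 4 to 6, 423 of 1269 against animals 1 to 3, and 320 of 1009 with the replicate block. Of the 4 called lower, 3 are named by the rule, which skips overlapping loci. H2-T24, a major histocompatibility complex class I gene (chr17:36003471-36020800), had 46.4 and 38.0 ipm in C57bl6J against 71.6 to 96.0 (-0.94 ± 0.16, adjusted p = 0.00834). 4933434E20Rik had 18.5 and 16.4 against 33.0 to 43.5 (-0.99), and Txndc11, a thioredoxin-domain gene, 33.8 and 35.6 against 49.5 to 80.4 (-0.74). The locus of Ubap2l (-0.73) overlaps that of 4933434E20Rik on chromosome 3 and shares insertions with it. None of the 4 belongs to a cell type list used here.

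The 5 lower windows named by rule had log2 fold changes from -1.24 to -1.11 and lay over Ttc3 and Vps26c, Rab11fip3, Ogdhl, H2-T24 and its neighbours, and Ctnnd2. In the H2-T24 window the groups were apart in TMM-scaled counts but met in ipm, with 30.5 in C57bl6J animal 1 and 30.05 in Syn1Cre animal 5. The Ctnnd2 window, in the gene of the neuronal adhesion protein delta-catenin, had 33.8 and 29.999 ipm in C57bl6J against 51.2 to 69.6 in 5 Syn1Cre animals and 132 in animal 5.

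Single TTAA sites were compared by the share of cortex parts that held an insertion there on a given strand, as a description. Parts were counted as lines at a site and strand, at most 10 per animal, since 8 primer barcodes occur in each C57bl6J animal but only 1 or 2 in each Syn1Cre animal. This share rises with depth, which is higher in C57bl6J by a ratio of 2.11, and it was not corrected for depth. The 5 sites with the largest excess in C57bl6J were held by 85% to 90% of parts in C57bl6J and by 3.33% to 18.3% in Syn1Cre. Of these, 2 lay on chromosome 13 in the interval between Mef2c and Tmem161b: one 199 kb from Mef2c, in 8 and 10 parts of the C57bl6J animals and in 0 to 3 parts of the Syn1Cre animals, and one 159 kb from Tmem161b, in 9 and 8 parts against 0 or 1. The others lay in Ipo5, 18.95 kb from Adcyap1r1, which encodes the PACAP receptor, and 18.6 kb from the tubulin gene Tuba1a. The 5 sites with the largest excess in Syn1Cre all lay within gene bodies: Emc7, Sox6, Igsf11, Nrcam and Kcnk1. The Sox6 site was held by no part in C57bl6J and by 2, 3, 2, 5, 6 and 9 parts in Syn1Cre animals 1 to 6.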

How the data were processed

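A line of these tables stands for 1 insertion and has read counts that the authors deposited as whole numbers, 1 or more per line. The build mm10 and the tools Novoalign and Bowtie2 are listed per the submitters' processing notes, without versions. Filters are not given in the sources used here. Starts were read as 0-based and are printed 1-based.

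From the tables, lines were counted per 50 kb window and per protein-coding locus (RefSeq, GRCm38.p6, 20661 genes on chromosomes 1 to 19). Counts were tested with edgeR 4.0.16 in R 4.3.3 (TMM, its low-count filter, quasi-likelihood), with Benjamini-Hochberg adjustment over all features tested. Library sizes were the totals on chromosomes 1 to 19. Named loci were the 10 highest and 10 lowest changes (windows: 5 and 5) past the threshold whose groups did not overlap in TMM-scaled counts, with at least the median mean count, without overlapping loci (windows: none within 200 kb). Lists name up to 6 called members and the 3 with the highest counts, and Gad1, Slc1a3 and Olig2. Some results that this rule would name are not reported here. Members and lists were chosen with earlier results of these data known. The striatal, thalamic, hippocampal and septal lists and the members named from them, and the setting without part 7, were chosen after seeing the data.

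On simulated counts with 200 loci or windows changed 2-fold, edgeR recovered 68.5% of the loci over 13658 loci and 54.5% of the windows over 29449 windows, with 2.84% and 2.68% of calls false. The alternatives were DESeq2 1.42.0, other scaling, filters and counting, subsets of animals and a replicate block. In the block the group contrast rests on replicates 1 and 2 of each group, so its counts rest on fewer animals.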

Additional observations from a re-analysis of the deposited data

Results flagged for a closer look

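Of 78 sets of 6 Syn1Cre values (list sums, named loci and the 3 single values), 10 had a sample far from the others by the gap to the next animal over the range of the group, and in all 10 it was Syn1Cre animal 5, the shallowest table. Chance gives about 1 such sample in 20 sets. Many of these sets share genes and so are not independent.

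In animal 5 the astrocyte list summed to 8499 insertions per 1000000, against 4402 in the next animal, the radial glia and progenitor list to 11318 (next 5865) and the microglia list to 557 (next 381). At single loci it had 1225 at Sox6, 1186 at Ntrk2, 784 at Slc4a4, 3719 at Nfia, 4186 at Zbtb20, 349 at Sall1 and 790 at Slc1a3. These genes are expressed in astrocytes or their precursors, and several of them, Sall1, Sox6 and Ntrk2 among them, in other cells too. Sall1 is on the microglia list and makes up most of its sum in animal 5 (349 of 557).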

How the results depend on the processing

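The count of 104 loci was 55 with total insertions scaling, 63 with DESeq2, 182 with distinct positions and strands, 22 after thinning to the shallowest animal, 6 with rows of 2 or more reads, 1269 against Syn1Cre replicates 1 to 3 only, and 155 without the low-count filter. Leaving out 1 animal gave 2 to 251 loci. The count of 490 windows was 148 with DESeq2, 75 after thinning, 184 with rows of 2 or more reads, 2734 against Syn1Cre replicates 1 to 3 only (55.7% higher) and 265 against replicates 4 to 6 only (66.8% higher), and 61 to 1271 without 1 animal. The cause of these differences was not tested, except that thinning and the read minimum leave fewer insertions. Without the low-count filter 70.1% of 596 windows were higher, and without Syn1Cre animal 5 63.7% of 1271.

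The labels give both groups replicates 1 and 2. Deviations of same-numbered samples correlated at 0.08 and -0.06, and those of other-numbered samples at 0.06 and -0.08. With 2 C57bl6J animals these values mirror each other, so they cannot settle whether the numbers pair the samples. A replicate block rests the group contrast on replicates 1 and 2 of each group, since higher numbers occur only in Syn1Cre. With that block 1009 loci and 2346 windows passed, and Erbb4 (0.27), Nfia (0.26) and Zbtb20 (0.43) turned higher in C57bl6J. Nfia (0.27) and Zbtb20 (0.47) also did so against Syn1Cre replicates 1 to 3 only.

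For the percent of insertions near a gene end (1 kb), the difference of -1.08 points was -1.03 with distinct positions and -1.04 with rows of 2 or more reads, no longer past an unadjusted p of 0.05, and -1.26 to -0.90 without 1 animal. The difference in log10 insertions of 0.32 ran from 0.25 to 0.40 without 1 animal, and that in gene bodies of -4.13 points from -4.37 to -3.62. The 13 loci and 10 windows named by the naming rule kept their direction under every alternative computed for them. The rule names only features whose groups do not overlap, so leaving out animals could hardly reverse a direction. Their kept direction therefore supports nothing.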
